A study of Mus musculus with 58 samples.

Results

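The Notch target and fringe genes examined here are 8 listed by name, Hes1, Hey1, Heyl, Nrarp, Hes6, Lfng, Mfng and Rfng, of the 19699 genes counted in single cells of the mouse embryonic pancreas. They were followed in 4310 cells that held at least 2000 transcripts and 500 genes. The cells come from 7 experiments, named by the EP numbers of the titles. By embryonic day they are EP11 and EP18 (E12.5), EP12 (E13.5), EP14 (E14.5), EP10 and EP17 (E15.5) and EP16 (E18.5). The stage is that of the stage label, and the titles of 12 of the 58 libraries, all sorted for GFP, give another one. Mothers in every experiment carried MIP-GFP, where GFP is driven by the insulin promoter of the mouse. In each experiment cells were sorted either for GFP or as live cells by exclusion of a viability dye. Single cells went into wells of plates and were counted by SORT-seq, which tags each transcript with a molecular identifier. The labels name no mouse strain, and they do not say whether the cells of an experiment came from several embryos or litters. All p-values therefore treat these experiments as the replicates. Classes and Neurog3 levels were compared within experiments, so those p-values measure how the differences vary from experiment to experiment. The compared classes shared a fit, so the p-value of any pair also draws on the spread in the other classes. Only the slopes by stage were fitted across experiments without this pairing.

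Cells were placed in classes by transcripts of gate genes, which are not reported as results. Insulin-gated (1000 cells) and glucagon-gated cells (572) gave at least 1% of their transcripts to that hormone. Fev-positive cells (352), late endocrine precursors, held at least 2 Fev transcripts and 0 Neurog3. Neurog3-positive cells (140), early endocrine precursors, held at least 2 Neurog3 transcripts and 0 Fev, and 253 further cells held both. Mesenchymal cells (712) held Col1a1 and Col3a1 and 0 Epcam. The cells called trunk here (473) held at least 2 transcripts each of Sox9 and Spp1, with at most 1 Neurog3 and 0 Fev. Immune cells (258) and unclassified cells (520) were not compared.

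The trunk rule also let in cells with tip markers. Of the 473 trunk-gated cells, 316 held more than 1 transcript of Cpa1, a marker of the tip cells that form acini. The summed level of 8 tip and acinar markers ranged from 778 to 11560.5 CPM (transcripts scaled to the total of each sum) across experiments in this class, with all 8 detected. The gates overlapped too: 64 of the 140 Neurog3-positive cells also passed the Sox9 and Spp1 thresholds. All 10 trunk and duct markers were detected in trunk-gated cells. The 5 pericyte and smooth muscle markers together reached between 161 and 374 CPM in mesenchymal cells. The 4 mesothelial markers reached between 131 and 446 CPM there, and 1 of them, Wt1, was seen in 31.2 to 52.4% of cells by experiment. Nearly all trunk-gated cells (471) and mesenchymal cells (701) came from live plates, against 95 of the Neurog3-positive and 58 of the Fev-positive cells. The sort for GFP took cells of several classes. At E12.5 it gave 0 insulin-gated cells, and of 349 GFP-sorted cells of EP11 256 were glucagon-gated and 35 immune. Retained cells of a plate held between 1144280 and 9432013 transcripts in all. The shallowest plates were those of EP17 and EP18. In EP16, 1 plate labelled as live bears a plate name of the kind that the GFP-sorted plates bear, and 291 of its 301 cells were insulin-gated, as were 294 of 319 cells of the plate sorted for GFP and 20 of 278 cells of the other live plate. Of 337 insulin-gated cells counted as live, 291 came from it, so insulin values from live plates rest mostly on this plate. Without it Hes6 differed by 0.79 between insulin- and glucagon-gated cells (edgeR adjusted p = 0.00708) and Hes1 by -1.70 between hormone-gated and Fev-positive cells (adjusted p = 0.0484).

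Notch receptors are cut when a ligand on a neighbouring cell binds them, and the freed intracellular part joins the DNA-binding protein RBPJ and a Mastermind protein to switch on target genes. Among these targets are Hes1, Hey1 and Heyl, which encode transcriptional repressors with a basic helix-loop-helix domain, and Nrarp, whose protein binds the complex and dampens it. In the developing pancreas Hes1 is known to repress Neurog3, the factor that starts the endocrine programme, and so to keep progenitors undifferentiated. Hes6 encodes a relative of Hes1 that, in the nervous system, is induced by proneural factors and opposes Hes1. Lfng, Mfng and Rfng encode the fringe enzymes, glycosyltransferases that add a sugar to Notch and shift which ligands it responds to.

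Windows of 300 bases around annotated starts were found in RefSeq (GRCm38.p6) for 4 of the 8 genes, Hes6, Lfng, Nrarp and Rfng. A pair of motifs was searched on both strands: TGGGAA, the core of the sequence that RBPJ binds, and CANNTG, the E-box bound by helix-loop-helix proteins such as NEUROG3. Of 32851 mouse windows of this length, 25.6% held TGGGAA and 72.3% held CANNTG. The Lfng, Hes6 and Nrarp windows are shown because mean Lfng and Hes6 were higher, and mean Nrarp lower, in cells with more Neurog3, as described further on. For Lfng and Nrarp this is a description without a test, and the Lfng experiments overlapped between levels. Lfng (chr5:140607091-140607390, plus strand) held 2 TGGGAA matches, one per strand and in capitals here, 135 and 108 bases before the start. The nearer one shares bases with a CANNTG match.
Lfng: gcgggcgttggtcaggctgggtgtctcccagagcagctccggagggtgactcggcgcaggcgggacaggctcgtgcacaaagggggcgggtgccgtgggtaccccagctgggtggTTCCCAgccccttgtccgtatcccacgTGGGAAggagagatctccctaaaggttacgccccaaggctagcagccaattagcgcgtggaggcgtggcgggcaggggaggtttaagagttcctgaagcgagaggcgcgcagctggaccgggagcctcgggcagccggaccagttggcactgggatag
Hes6 has 2 annotated starts, and the window of the upstream one (chr1:91413989-91414288, minus strand) held 3 CANNTG matches, in capitals, and 0 TGGGAA.
Hes6: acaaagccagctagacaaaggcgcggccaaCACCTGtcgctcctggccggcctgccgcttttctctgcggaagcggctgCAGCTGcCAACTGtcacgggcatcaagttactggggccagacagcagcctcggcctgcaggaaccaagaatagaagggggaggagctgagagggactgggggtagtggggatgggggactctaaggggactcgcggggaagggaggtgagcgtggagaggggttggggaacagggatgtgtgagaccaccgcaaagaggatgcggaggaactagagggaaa
The Nrarp window (chr2:25180508-25180807, plus strand) held 2 CANNTG matches, in capitals, and 0 TGGGAA.
Nrarp: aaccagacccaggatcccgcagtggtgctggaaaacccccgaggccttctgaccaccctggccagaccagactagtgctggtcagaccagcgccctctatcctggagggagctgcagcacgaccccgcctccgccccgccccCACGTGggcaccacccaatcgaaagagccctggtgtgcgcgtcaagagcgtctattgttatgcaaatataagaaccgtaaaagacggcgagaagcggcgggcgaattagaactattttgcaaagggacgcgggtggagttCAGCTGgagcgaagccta
A match describes letters in the window and does not show that a factor binds there.

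The first comparison asked how the targets differ between endocrine precursors and the Sox9- and Spp1-expressing epithelium. In Neurog3-positive cells Hes6 and Mfng rose, and none of the 8 genes fell past the threshold. Hes1 was detected in fewer Neurog3-positive cells, yet its summed level overlapped that of trunk-gated cells. Counts were summed per experiment and class and tested with edgeR's quasi-likelihood test, with the experiment as block and Benjamini-Hochberg adjustment over 12264 genes at 0.05. Of these genes 10.8% were called higher and 8.21% lower in Neurog3-positive cells.

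Hes6 stood at 266, 299, 194 and 157 CPM in the Neurog3-positive cells of EP11, EP12, EP14 and EP10. In trunk-gated cells Hes6 lay between 36.8 and 84.6 CPM over the 7 experiments. The ranges did not overlap, and Hes6 was higher in 4 of 4 experiments that had both classes. The fitted log2 difference was 1.83 ± 0.22 (SE, edgeR adjusted p = 2.09e-07). A Hes6 transcript was seen in 90.0% of Neurog3-positive cells (Wilson 95% interval 83.9 to 93.9%) and in 61.3% of trunk-gated cells (56.8 to 65.6%). At an equal depth of 2000 transcripts per cell these shares were 37.1% and 9.51%.

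Mfng, the Manic fringe gene, was nearly undetected in trunk-gated cells. Its levels were 135, 159, 112 and 64.8 CPM in the Neurog3-positive cells of EP11, EP12, EP14 and EP10. In trunk-gated cells Mfng ranged from 0 to 2.38 CPM over 7 experiments, so that the groups were far apart. Its log2 difference was 6.04 ± 0.61 (SE, edgeR adjusted p = 4.4e-09). The trunk sums held 0 to 8 Mfng transcripts, too few to pass the filter on low counts when fitted alone. Mfng was tested through the classes where it is higher, so the size of this difference rests on few trunk counts. Mfng was detected in 84 of 140 Neurog3-positive cells (60.0%) and in 13 of 473 trunk-gated cells (2.75%), with median depths of 17485 and 20212 transcripts. Within live plates alone the log2 difference was 5.37 for Mfng (edgeR adjusted p = 0.000259) and 1.42 for Hes6 (adjusted p = 0.000197).

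Hes1 had 239.6, 126, 388 and 408 CPM in the Neurog3-positive cells of EP11, EP12, EP14 and EP10, against 359, 303, 310.2 and 326 CPM in the trunk-gated cells of the same experiments. It was lower in EP11 and EP12 and higher in EP14 and EP10. The log2 difference of -0.68 ± 0.43 (SE) did not pass the test (edgeR adjusted p = 0.287), with a 95% interval from -1.52 to 0.15. Without the Neurog3-positive cells that also met the trunk thresholds, the difference was -1.62 and passed (adjusted p = 0.0392). Hes1 was detected in 43.6% of Neurog3-positive cells (35.6 to 51.8%) and 86.0% of trunk-gated cells (82.6 to 88.9%). In insulin-gated cells it was detected in 6.10%, at a median depth of 17515.5 transcripts.

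Nrarp was lower in Neurog3-positive than in trunk-gated cells in 4 of 4 experiments. Its level was 33.3 ± 20.1 CPM (SD, n = 4 experiments) in Neurog3-positive cells and 66.2 ± 22.3 CPM (n = 7) in trunk-gated cells. The log2 difference of -1.34 ± 0.53 (SE) missed the threshold (edgeR adjusted p = 0.0721), and the call depended on the gate. With gates of 4 transcripts Nrarp differed by -2.12 (adjusted p = 0.00207), and without the doubly gated cells by -3.40 (adjusted p = 0.00466). Lfng, the Lunatic fringe gene, averaged 20.1 ± 6.16 CPM in Neurog3-positive cells and 8.85 ± 4.05 CPM in trunk-gated cells (SD). Its log2 difference of 0.92 ± 0.54 (SE) did not pass either (adjusted p = 0.25). Gates of 4 transcripts (1.86, adjusted p = 0.0229) and trunk cells with at most 1 Cpa1 transcript (2.27, adjusted p = 0.0436) brought Lfng past the threshold. Hey1, Heyl and Rfng differed by -0.42, -0.30 and -0.08 on the log2 scale, with 95% intervals that all included 0. Without the doubly gated cells Heyl differed by -2.17 and passed (adjusted p = 0.0353). For genes falling in Neurog3-positive cells, 1 member (Nrarp) had an unadjusted p under 0.05 in edgeR, and DESeq2 called 0 members lower.

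**Figure D1:**
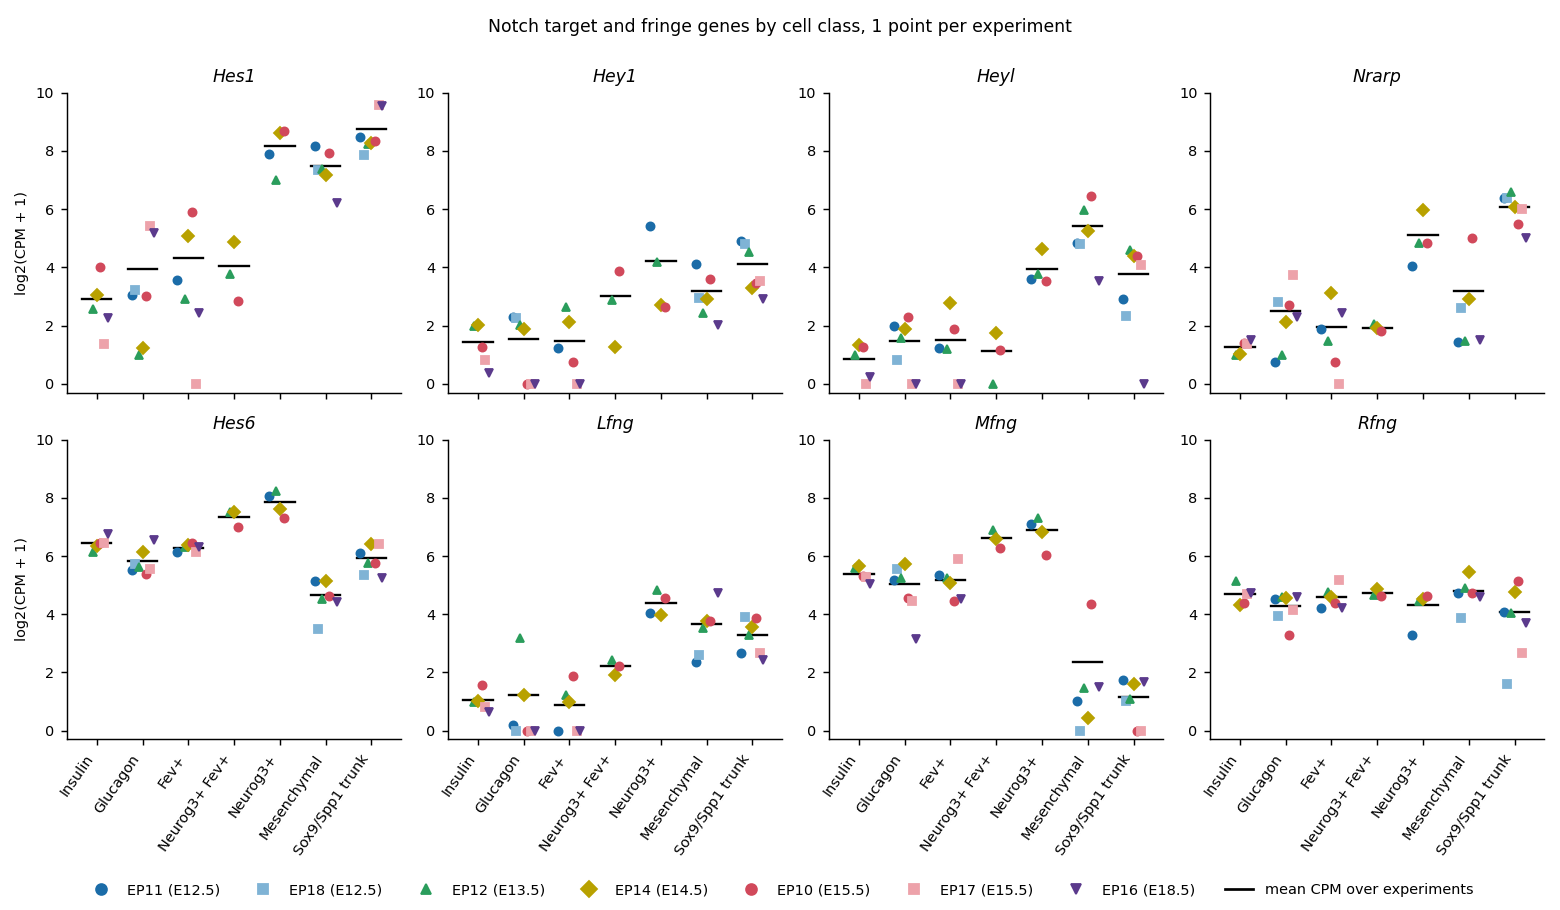
Level of each gene as log2(CPM + 1) on the vertical axis, by cell class along the horizontal axis, with 1 point per experiment that had at least 10 cells of the class and a black bar at the mean CPM. Hes1 stands between 126 and 772 CPM in Neurog3-positive and trunk-gated cells and at or below 59.4 CPM in the Fev-positive and hormone-gated classes, Mfng has its highest points in Neurog3-positive cells, and the class means of Rfng run from 15.9 to 26.5 CPM.

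Other genes of the pathway were counted as well. From a list of 29 other pathway genes chosen with earlier results of these data known, 25 were tested in Neurog3-positive against trunk-gated cells. Of these, 5 were higher and 3 lower. All 5 ligands tested were among the 8 called, of which Dlk1 (-1.06, edgeR adjusted p = 0.0462) kept its call in 8 of 21 alternatives and lost it without EP10, EP12 or EP14 and within live plates, among others. Of 14 genes that pass on the signal, 2 were higher, 1 lower and 11 not called. Dll3 (log2 difference 7.81), a Delta-type ligand that does not activate Notch on neighbouring cells, Numbl (4.01), which encodes a Numb-like Notch inhibitor, and Dll4 (3.55), an activating ligand, led the higher ones. None of these passed the filter on low counts in trunk-gated cells fitted alone, so their sizes rest on few transcripts there. Jag1, a Jagged-type ligand, fell by 2.12 on the log2 scale. Over the list the median was 0.19, against -0.05 over all genes tested.

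Within the Neurog3-positive class, Hes1, Hes6 and Mfng followed the amount of Neurog3. In each experiment the cells were split into 3 nearly equal parts by Neurog3 transcripts per 10000. Over the 140 cells the median was 4, 37 and 90.5 Neurog3 transcripts from the low to the high level. Planned sums of at least 10 cells per level existed in 1 experiment, so sums of at least 7 cells were used instead, a choice made after seeing the data. This left 4 experiments and 5310 genes, of which 13.1% were higher and 12.7% lower at the high level.

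Hes1 at the high Neurog3 level had 0, 12.6, 0 and 12.2 CPM in EP11, EP12, EP14 and EP10. The zeros allow up to 25.8 CPM in EP11 and 21.3 CPM in EP14, since 3 counts set the limit and counting error alone is covered. At the low level Hes1 had 447, 266, 381 and 752 CPM in the same experiments. The levels did not overlap, and the log2 difference was -5.96 ± 0.85 (SE, edgeR adjusted p = 0.000112). Hes1 was detected in 4 of 44 high-level cells and passed the filter on low counts through its other sums. The size and p-value of this difference thus rest on very few high-level transcripts. The middle level was uneven: EP14 had 716 CPM of Hes1 there, against 124, 49.4 and 60.0 CPM in EP11, EP12 and EP10. By cells, Hes1 was detected in 79.2%, 39.6% and 9.09% from low to high.

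Hes6 moved in the opposite sense, averaging 67.7 ± 15.1, 288 ± 121 and 441 ± 94.2 CPM (SD, n = 4 experiments) from the low to the high level. Its lowest high-level value, 323 CPM in EP10, lay above its highest low-level value, 82.7 CPM in EP11. The log2 difference of high against low was 2.69 ± 0.25 (SE, edgeR adjusted p = 4.7e-06). Mfng averaged 12.9 ± 18.7, 167 ± 74.9 and 245 ± 62.5 CPM over the same steps. It differed by 4.08 ± 0.48 (SE, edgeR adjusted p = 2.04e-05), and by 5.69 without EP12, whose low-level cells held the most Mfng (40.5 CPM). Mfng was detected in 10 of 48 low-level cells, so these sizes rest on few transcripts there.

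The other 5 genes did not pass the filter on low counts in these small sums, and their levels are given as a description. Nrarp averaged 66.3 CPM at the low level, 9.10 at the middle and 3.15 at the high level, and was at 0 in 3 of 4 high-level sums. Some other settings let Nrarp into the fit. With so few transcripts at the high level it enters through its low-level sums. Since it missed the filter of the main fit, no test of it is given. Heyl averaged 24.0, 10.1 and 4.57 CPM. Mean Lfng ran the other way, with 9.77 ± 13.6, 29.0 ± 13.2 and 30.0 ± 19.9 CPM (SD). Its experiments overlapped, from 0 to 28.9 CPM at the low level and from 8.61 to 54.8 CPM at the high level. Hey1 stood at 13.6, 19.7 and 20.3 CPM, with the spread between experiments (SD 13.9 to 28.4) as large as these levels. Rfng showed no ordered change at 18.1, 14.7 and 24.6 CPM.

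Other features moved along with Neurog3. Sox9, a progenitor factor used in the trunk gate, averaged 684, 471 and 101 CPM from low to high, and Cpa1 1594, 157 and 52.5 CPM. Top2a, a marker of dividing cells, averaged 572, 81.2 and 158 CPM. Median depth was 23357, 17197.5 and 15203 transcripts per cell. Sox9 was detected in 93.75% of low-level and 56.8% of high-level cells, and Neurod1, an endocrine gene, in 18.75% and 77.3%. By experiment, a Neurog3 transcript was also seen in 0 to 27.3% of immune cells and 0 to 9.35% of mesenchymal cells. A gate of 2 transcripts may thus admit cells with stray Neurog3 at the low level, which was not tested. The part of these features in the changes of Hes1, Hes6 and Mfng was not tested either. Of the other pathway genes, 16 passed the filter, with 6 higher at the high level, led by Dll3 (5.87), Numbl (4.54) and Dll4 (2.71), and 3 lower, which were Notch2 (-4.72), Notch1 (-1.80) and Dlk1 (-1.72). Notch1 and Notch2 are receptors, and Dlk1 encodes a membrane protein of the Delta family without the domain that activates Notch.

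**Figure D2:**
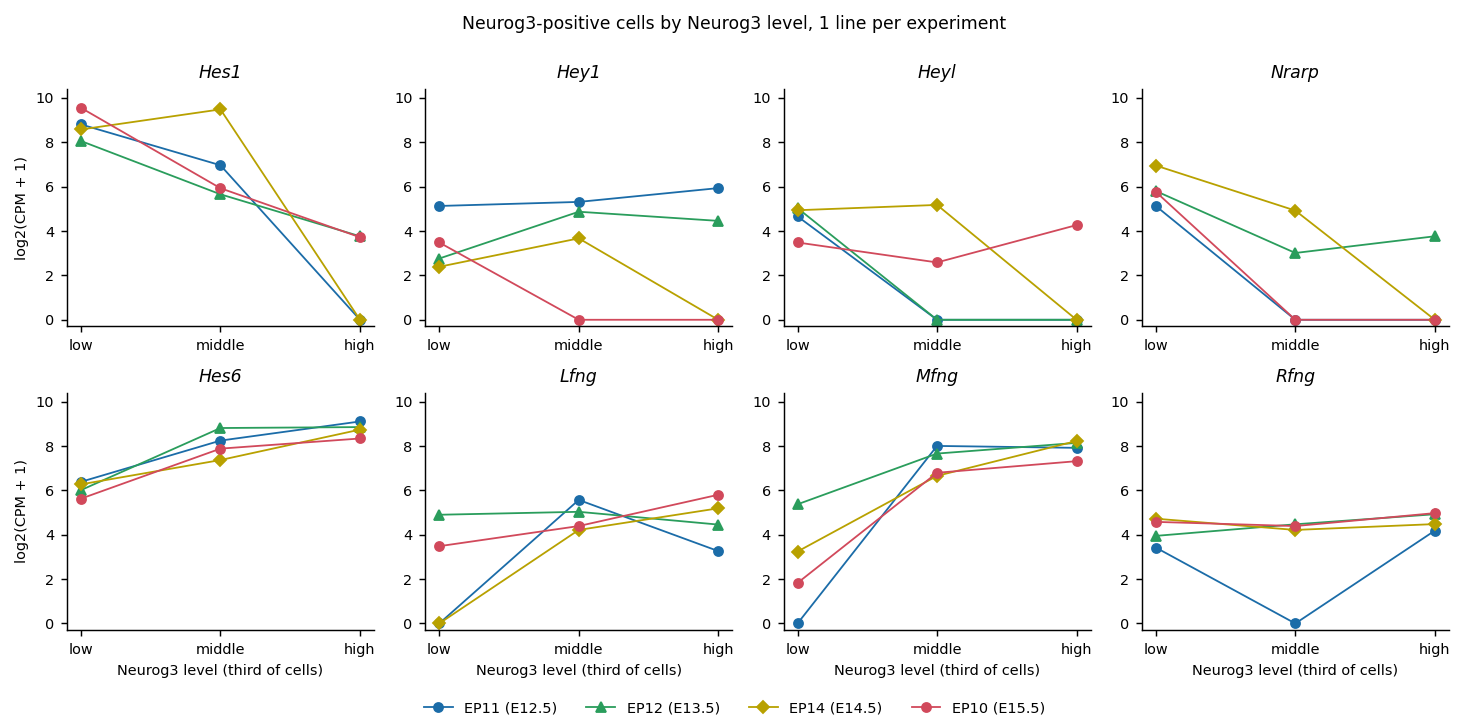
Level of each gene as log2(CPM + 1) on the vertical axis in Neurog3-positive cells of low, middle and high Neurog3 level on the horizontal axis, with 1 line per experiment. Hes1 ends at or below 12.6 CPM at the high level in all 4 experiments, while Hes6 ends between 323 and 551 CPM and Mfng between 158 and 299 CPM.

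Whether Hes1 and Hes6 exclude each other was then asked within single cells. By presence of a transcript no separation was shown, in a design that could hardly show one. Among the 140 Neurog3-positive cells 55 held both genes, where independent detection would give 54.9. Since 126 of the 140 cells held Hes6, these counts leave little room to differ. With cells thinned to 2000 transcripts, the log odds ratio of joint detection was -0.11, 0.13, -1.58 and 0.14 in EP11, EP12, EP14 and EP10. The mean of -0.35 did not differ from 0 by a two-sided exact sign-flip permutation test over experiments (p = 0.875), a test that cannot go below 0.125 with 4 experiments. Without EP14 the mean was 0.05. At a depth of 4000 transcripts it was -1.58 and negative in 4 of 4 experiments (p = 0.125, exact permutation test), the smallest p this design allows. With at least 2 transcripts of each gene in unthinned cells it was -0.99, again negative in 4 of 4 experiments (p = 0.125, exact permutation test). Other settings did not share this: without thinning the mean was 0.15 and negative in 2 of 4 experiments (p = 0.875, exact permutation test). It was -0.29 with gates of 1 transcript, 0.04 with gates of 4 (2 experiments) and 0.43 within live plates (1 experiment). Each thinning was a single random draw.

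By level, the same cells differed. The 61 Neurog3-positive cells with Hes1 had 121 CPM of Hes6 when pooled, and the 79 cells without Hes1 had 363 CPM. In each experiment the cells with Hes1 were lower: 135 against 401 CPM of Hes6 in EP11, 138 against 389 in EP12, 98.7 against 384 in EP14, and 115 against 249 in EP10. No test is given, since the split uses a member and follows the Neurog3 level. Neurog3 itself stood at 881 CPM in cells with Hes1 and 4195 CPM in those without, and Sox9 at 716 and 154 CPM. Median depth was 21600 transcripts in cells with Hes1 and 15453 in those without.

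For Mfng the shares of cells were apart, as a description without a test. It was detected in 15 of the 61 cells with Hes1 (24.6%), against 87.3% of the cells without, and 36.6 joint cells would be given by independent detection. Pooled Mfng was 24.4 CPM in cells with Hes1 and 232 CPM in those without. The other targets varied. Nrarp was present in 42.6% of cells with Hes1 and 10.1% of cells without, and its level was higher with Hes1 in 4 of 4 experiments. Heyl was present in 34.4% of cells with Hes1 and 7.59% of cells without, and its level was higher with Hes1 in 3 of 4 experiments, with 9.71 CPM against 12.4 CPM without Hes1 in EP10. Pooled Hey1 stood at 10.8 CPM with Hes1 and 20.7 CPM without. By experiment Hey1 was lower with Hes1 in EP11 and EP12, alike in EP14 (5.48 against 5.49 CPM) and higher in EP10 (7.77 against 0 CPM). Pooled Lfng stood at 21.0 CPM with Hes1 and 26.2 CPM without, but was higher with Hes1 in EP11 and EP12 and lower in EP14 and EP10.

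**Figure D3:**
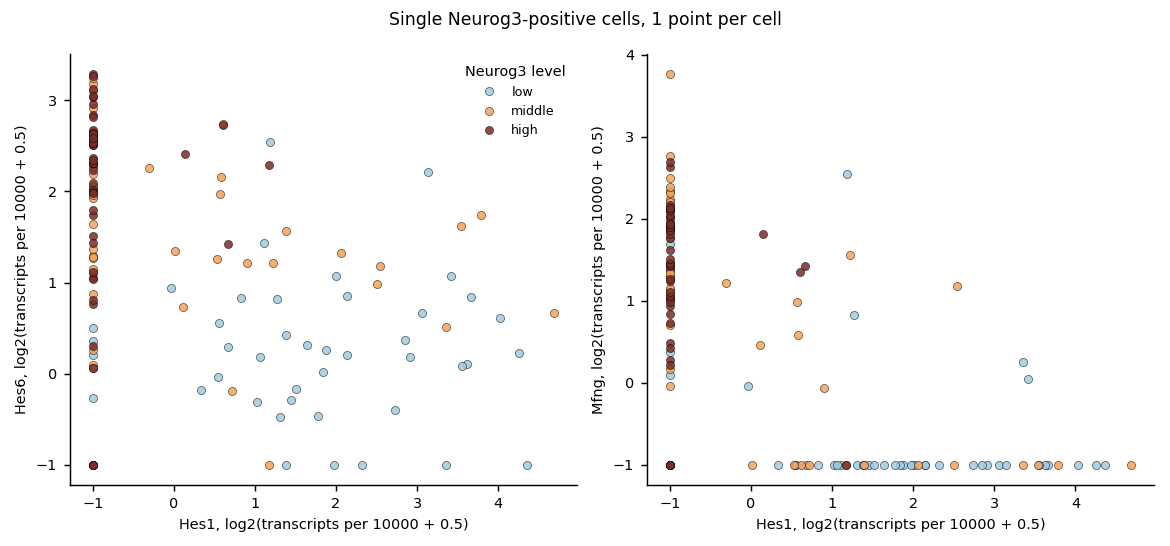
Each point is 1 of the 140 Neurog3-positive cells, with Hes1 on the horizontal axis and Hes6 (left) or Mfng (right) on the vertical axis, both as log2(transcripts per 10000 + 0.5), coloured by Neurog3 level. Cells of high Neurog3 level gather at 0 Hes1 on the left edge, with Hes1 detected in 9.09% of them, and most cells with Hes1 lie at 0 Mfng.

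In trunk-gated cells the joint detection of Hes1 and Hes6 leaned the other way. At 2000 transcripts the mean log odds ratio over 7 experiments was 0.59, positive in 5 of them, and did not pass (p = 0.188, two-sided exact sign-flip permutation test). With at least 2 transcripts of each gene it was 0.53 and positive in 7 of 7 experiments (p = 0.0156, exact permutation test, the smallest p possible with 7). That setting used unthinned cells, in which both genes are seen more often at higher depth, and at 4000 transcripts the value was 0.13.

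The next comparison followed the genes into Fev-positive precursors. There 7 of the 8 genes fell relative to Neurog3-positive cells, and Rfng was the one that did not pass. Over all 12264 genes 16.6% were higher and 19.9% lower. The median log2 difference was -2.32 over the 8 genes and -0.02 over all genes. Markers moved with this fall: 6 genes of dividing cells summed to 0 to 152 CPM in Fev-positive cells, against 694 to 1982 CPM in Neurog3-positive cells, and Spp1 stood at 0 to 47.4 CPM, against 350.5 to 2136 CPM. Their part in the result was not tested.

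Hes1 had 10.9, 6.57, 33.1, 59.4, 0 and 4.38 CPM in the Fev-positive cells of EP11, EP12, EP14, EP10, EP17 and EP16, against 126 to 408 CPM in Neurog3-positive cells. The ranges did not overlap. Hes1 fell by 3.61 on the log2 scale (SE 0.48, edgeR adjusted p = 5.26e-07). Hes6 kept a narrow range in Fev-positive cells, from 69.3 to 86.1 CPM, below the 157 to 299 CPM of Neurog3-positive cells, and fell by 1.61 (SE 0.23, edgeR adjusted p = 1.84e-06). Mfng lay between 20.7 and 58.4 CPM, against 64.8 to 159 CPM, and fell by 1.86 (SE 0.47, edgeR adjusted p = 0.00211).

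Lfng dropped by 4.10 on the log2 scale (edgeR adjusted p = 2.43e-05), to between 0 and 2.67 CPM in Fev-positive cells against 14.6 to 27.7 CPM in Neurog3-positive cells. Its zeros in EP17 (11 cells), EP16 (15 cells) and EP11 allow up to 35.05, 13.1 and 4.07 CPM, so the EP17 zero cannot be told from the Neurog3-positive range. Nrarp dropped by 3.31 (adjusted p = 0.000356), Heyl by 2.36 (adjusted p = 0.000437) and Hey1 by 2.29 (adjusted p = 0.00103). Hey1 and Heyl were also at 0 in EP17 and EP16, and Nrarp in EP17. The same limits there lie within or above their Neurog3-positive ranges. Their other Fev-positive sums held at most 16 transcripts, so the sizes of these falls rest on few counts. Each of the 7 genes was lower in 4 of 4 experiments with both classes. Rfng differed by 0.14, with a 95% interval from -0.59 to 0.88. Fev-positive cells were mostly GFP-sorted (58 of 352 from live plates). Within live plates Hes1 (-2.07, edgeR adjusted p = 0.0293) and Hes6 (-1.14, adjusted p = 0.0185) passed, and the other 5 kept a negative difference without passing, of which Heyl had -0.50 and Mfng -0.94.

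Cells that held both Neurog3 and Fev lay between these classes in part. Their Hes1 level was 15.6 ± 11.2 CPM (SD, n = 3 experiments), against 19.0 CPM in Fev-positive cells, and Nrarp was at 2.81 CPM, against 2.88 CPM. Lfng was at 2.81 to 4.41 CPM, below the 14.6 to 27.7 CPM of Neurog3-positive cells. It lay above the observed 0 to 2.67 CPM of Fev-positive cells, whose zeros allow higher values. Hes6 (162 ± 31.0 CPM) and Mfng (96.5 ± 20.5 CPM) were nearer the Neurog3-positive means of 229 and 118 CPM. These values are a description, as the class was in no fit.

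Among the other pathway genes, 10 of 25 tested fell in Fev-positive cells and 2 rose. Notch2 (-3.40), Maml2 (-2.30), a Mastermind coactivator, and Notch3 (-2.21) had the largest falls. Maml2 missed the filter on low counts in Neurog3-positive cells fitted alone. Psen2 (1.33), a catalytic subunit of the protease that frees the Notch intracellular part, and Maml3 (1.19) rose. The list's median was -0.59.

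Hormone-gated cells were then set against Fev-positive cells. Of all genes 1.66% were higher and 2.52% lower in the mean of insulin- and glucagon-gated cells than in Fev-positive cells. Hes1 was the 1 member called. It ranged from 1.55 to 15.02 CPM in insulin-gated and from 1.01 to 41.7 CPM in glucagon-gated cells, against 0 to 59.4 CPM in Fev-positive cells, so the groups overlapped. Its log2 difference was -1.62 ± 0.48 (SE, edgeR adjusted p = 0.0486). This call was lost in 12 of 21 alternatives, and with gates of 4 transcripts the difference was 0.000813, where it was -3.30 with gates of 1. The adjusted p was 0.318 without EP10, 0.366 without EP14, 0.0624 without EP11, 0.0781 without EP12 and 0.0571 without EP18. In EP10 the 59.4 CPM of Fev-positive cells came from 89 Hes1 transcripts in 8 of 73 cells. The most Hes1 in 1 Fev-positive cell of any experiment was 67 transcripts, so few cells carry these values. Fev-positive cells held tip and acinar markers at 81.8 to 2175 CPM, against 74.8 to 285 CPM in insulin-gated and 36.4 to 208 CPM in glucagon-gated cells, whose part in the result was not tested.

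Hes6 had 85.6 ± 13.6 CPM in insulin-gated (SD, n = 5) and 56.3 ± 18.7 CPM in glucagon-gated cells (n = 7), against 77.3 ± 6.57 CPM in Fev-positive cells (n = 6). Its log2 difference of hormone-gated against Fev-positive cells was -0.02, with a 95% interval from -0.40 to 0.35. Mfng remained detectable in hormone cells, at 31.7 to 49.1 CPM in insulin-gated and 7.77 to 51.6 CPM in glucagon-gated cells, against 20.7 to 58.4 CPM in Fev-positive cells. The Mfng difference was 0.42, with an interval from -0.36 to 1.20. Of the 25 other pathway genes, Dll3 (-1.40) was the 1 called. Of the 8 members 0 were higher in edgeR, with 0 at an unadjusted p under 0.05 in edgeR and 0 called by DESeq2.

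Between the hormone classes, Hes6 was higher in insulin-gated cells. It had 68.9, 80.6, 86.0, 86.1 and 106 CPM in the insulin-gated cells of EP12, EP14, EP10, EP17 and EP16, against 48.3, 69.2, 40.9, 45.8 and 93.3 CPM in the glucagon-gated cells of the same experiments. It was higher in 5 of 5 experiments, though the ranges overlapped across experiments. The log2 difference was 0.81 ± 0.22 (SE, edgeR adjusted p = 0.00713). It did not pass without EP10 (0.70, adjusted p = 0.0559) or within plates labelled as live (3.14, adjusted p = 0.206), where most insulin-gated cells came from the EP16 plate whose name does not match its sort. Of all genes 11.5% were higher and 10.3% lower in insulin-gated cells. The other 7 members were not called, among them Heyl (-1.39, adjusted p = 0.0765), which in both classes stayed at or below 3.94 CPM. Of the other pathway genes 4 were higher, among them Dlk1 (2.22) and Psen2 (1.04), and 3 lower, which were Dll3 (-2.97), Notch2 (-2.46) and Maml2 (-1.79). None of these 3 lower genes passed the filter on low counts in insulin-gated cells fitted alone, and Maml2 passed in neither hormone class alone.

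**Figure D4:**
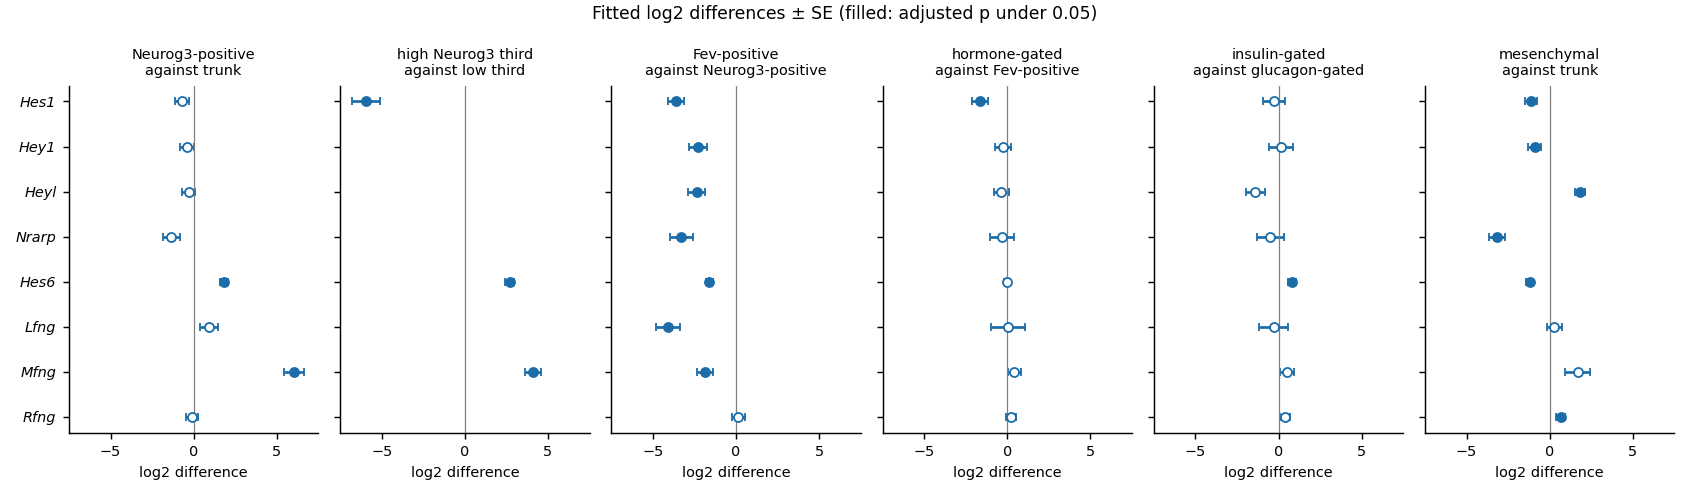
Fitted log2 difference of each gene on the horizontal axis with its SE, in 6 comparisons, the named class first in each heading. Filled points passed an edgeR adjusted p of 0.05 and open points did not, and genes without a point did not pass the filter on low counts. Hes1, Nrarp, Lfng, Hey1 and Heyl lie between -4.10 and -2.29 in Fev-positive against Neurog3-positive cells.

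Mesenchymal cells, the connective tissue around the epithelium, used a different mix of the targets. Against trunk-gated cells, Heyl and Rfng rose and Nrarp, Hes6, Hes1 and Hey1 fell, among 24.3% of all genes higher and 23.6% lower. Heyl had 27.9, 27.1, 61.7, 36.9, 87.2 and 10.5 CPM in the mesenchymal cells of EP11, EP18, EP12, EP14, EP10 and EP16. In trunk-gated cells of these experiments Heyl had 6.55, 4.03, 23.0, 20.1, 19.95 and 0 CPM. It was higher in 6 of 6 experiments, by 1.80 ± 0.31 on the log2 scale (SE, edgeR adjusted p = 1.33e-05).

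Nrarp lay between 1.72 and 6.57 CPM in 5 of the 6 mesenchymal sums and at 31.4 CPM in EP10, against 31.4 to 94.8 CPM in trunk-gated cells. It was lower in 6 of 6 experiments and fell by 3.18 (SE 0.48, edgeR adjusted p = 2.07e-06). Hes6 was 24.1 ± 9.05 CPM in mesenchymal cells (SD, n = 6) and 59.9 ± 19.7 CPM in trunk-gated cells (n = 7), and fell by 1.20 (SE 0.22, edgeR adjusted p = 2.52e-05).

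Hes1 remained well detected in mesenchyme, in 66.7% of cells (63.2 to 70.1%). Its level was 179 ± 75.4 CPM, against 434 ± 223 CPM in trunk-gated cells (SD), lower in 6 of 6 experiments and by 1.11 on the log2 scale (SE 0.36, edgeR adjusted p = 0.0116). Without EP16, where Hes1 was 72.9 CPM in mesenchymal and 738 CPM in trunk-gated cells, the difference was -0.75 (adjusted p = 0.0504), and DESeq2 gave an adjusted p of 0.128. Hey1 (-0.91, edgeR adjusted p = 0.0456) and Rfng (0.66, adjusted p = 0.0491) passed narrowly. Hey1 kept its call in 6 of 20 alternatives and Rfng in 9 of 20. Lfng differed by 0.27 and did not pass (interval -0.62 to 1.16). Mfng differed by 1.69 (adjusted p = 0.062) by -0.68 without EP10, and it passed without EP11 (2.34, adjusted p = 0.0291) or EP14 (2.11, adjusted p = 0.0316).

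In EP10, 8 of the 125 mesenchymal cells held at least 5 transcripts of endothelial markers. Those 8 cells held 69 of the 82 Nrarp and 48 of the 51 Mfng transcripts of the class in that experiment. In the other 117 cells Nrarp stood at 5.76 CPM and Mfng at 1.33 CPM. Endothelial markers summed to between 8.81 and 281 CPM across the mesenchymal sums, the highest of them in EP10. This split and the next were made after seeing the data and have no test.

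Heyl was uneven within the mesenchyme. Cells with at least 5 transcripts of pericyte and smooth muscle markers (143 cells) had 121 CPM of Heyl, against 12.8 CPM in the other 569. It was 75.0 against 6.97 CPM in EP11, 122 against 10.96 in EP14, 144 against 26.7 in EP10 and 22.5 against 8.14 in EP16, so the marker-rich cells were higher in each. Hes1 was 232 CPM in the marker-rich cells and 179 CPM in the others. Of the other pathway genes, 11 of 25 were higher in mesenchymal than in trunk-gated cells, led by Hey2 (5.92), a further Hey repressor, Numbl (3.03) and Dll3 (2.19). The 5 lower ones were led by Dll1 (-2.72), a Delta-type activating ligand. Hey2, Numbl and Dll3 all missed the filter on low counts in trunk-gated cells fitted alone. Dll3 missed it in mesenchymal cells alone too and was tested through other classes, so its difference lies between low levels.

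By stage, 1 of the 8 genes passed in 1 class. Slopes per day were fitted within a class over its experiments. In mesenchymal cells Lfng rose, with 4.14 and 5.08 CPM at E12.5 (EP11 and EP18), 10.6 CPM in EP12, 12.8 in EP14, 12.6 in EP10, and 25.3 at E18.5 (EP16). Its slope was 0.40 ± 0.10 log2 units per day (SE, edgeR adjusted p = 0.0474), where 5.45% of genes had a slope called. The call is lost without EP10, EP11, EP12, EP14, EP16 or EP18, with adjusted p between 0.0687 and 0.518. DESeq2 gave 0.0232.

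In trunk-gated cells 3.1% of genes had a slope called and none of the 7 members tested did, with 3 at an unadjusted p under 0.05 in edgeR and 2 called by DESeq2 (Hey1 and Nrarp). Hey1 had 28.9 and 27.2 CPM at E12.5, 21.8 in EP12, 8.71 in EP14, 9.98 and 10.6 at E15.5, then 6.50 at E18.5, with a slope of -0.42 ± 0.10 (SE, edgeR adjusted p = 0.053, and 0.236 without EP16). Nrarp had 81.5 and 81.5 CPM at E12.5, 94.8 in EP12, 66.3 in EP14, 44.2 and 63.5 at E15.5, then 31.4 at E18.5, with a slope of -0.27 ± 0.07 (adjusted p = 0.0554, and 0.609 without EP16). Hes1 went the other way, with 359 and 231 CPM at E12.5 and 738 CPM at E18.5, a slope of 0.23 ± 0.08 (adjusted p = 0.189). The make-up of this class moved with stage as well: Cpa1 was at 66.0 CPM at E18.5 and between 932 and 2732 CPM in the other experiments. Its part in these slopes was not tested.

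The Hes1 slope was -0.19 in mesenchymal cells, opposite in sign to that of trunk-gated cells, and neither passed. The difference between them, mesenchymal minus trunk, was -0.38 ± 0.09 log2 units per day for Hes1 (SE, edgeR adjusted p = 0.0667) and -0.04 without EP16. It passed without EP10 (-0.44, adjusted p = 0.00017) and in DESeq2 (adjusted p = 0.0257). For Lfng the difference was 0.50 ± 0.14 (adjusted p = 0.105). Of all genes 2.64% had a called difference, and of 7 members 0 did in edgeR, 2 had an unadjusted p under 0.05 and 1 was called by DESeq2.

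In Neurog3-positive cells 0.126% of genes had a slope called, over 4 experiments, and 0 of 7 members, with 2 at an unadjusted p under 0.05 and 0 by DESeq2. In insulin-gated cells the share was 5.43% with 0 of 4 members called, 1 at an unadjusted p under 0.05 (Hes6, 0.18 ± 0.05, adjusted p = 0.0665) and 0 by DESeq2. In glucagon-gated cells it was 2.51% with 0 of 4 members, 1 at an unadjusted p under 0.05 (Mfng, -0.27 ± 0.10, adjusted p = 0.193) and 0 by DESeq2. The titles of the EP11, EP18 and EP16 libraries sorted for GFP give another stage than the stage label used here. With the titles' stages no gene at all had a slope called in either hormone class. Of the other pathway genes, Dlk1 had a slope of -0.44 in trunk-gated and 0.24 in mesenchymal cells, and the difference of 0.67 passed (edgeR adjusted p = 0.00265). Dll1 fell with stage in trunk-gated cells (-0.58) and Dll3 in glucagon-gated cells (-0.80).

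**Figure D5:**
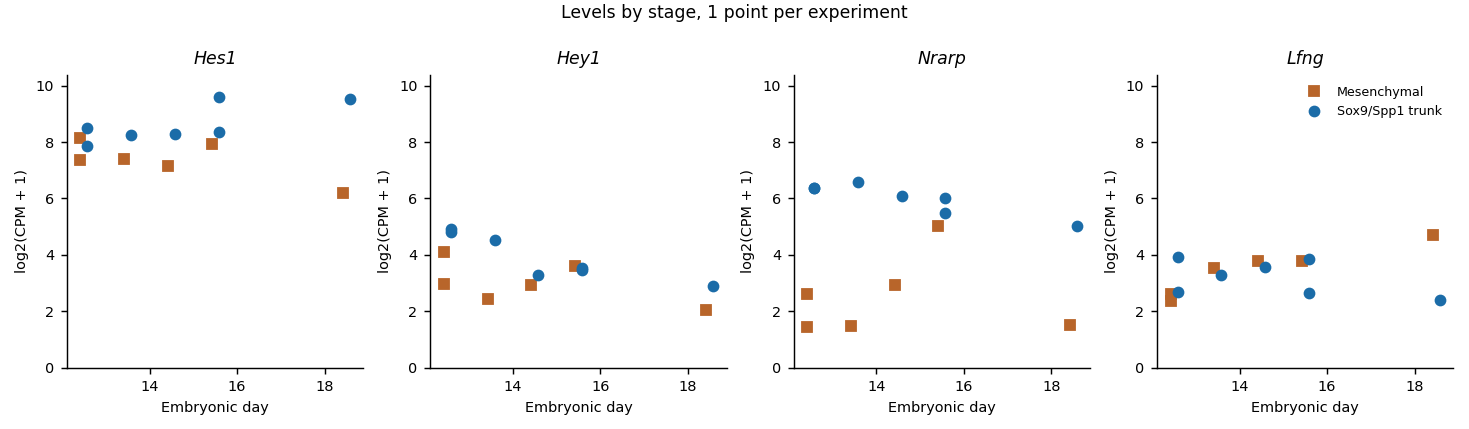
Level as log2(CPM + 1) on the vertical axis against embryonic day on the horizontal axis for Hes1, Hey1, Nrarp and Lfng, in mesenchymal (squares) and trunk-gated cells (circles), with 1 point per experiment and the classes set slightly apart. Hey1 and Nrarp of trunk-gated cells are lowest at E18.5 (6.50 and 31.4 CPM), and mesenchymal Lfng is highest there (25.3 CPM).

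Over the 35 sums of class and experiment, genes were ranked by the Pearson correlation of log2(CPM + 1) with each member, as a description over sums that share plates and depth. For Hes1 the nearest were Mcm3 (0.94), Bub1b (0.94), Ajuba (0.94), Cdca2 (0.93) and Lig1 (0.93), of which Mcm3, Bub1b and Lig1 are genes of replication and division. Hes6 was nearest to Gdpd1 (0.88), 2010107G23Rik (0.88), Cpt2 (0.84), Tbc1d9 (0.83) and Ptprf (0.82). Mfng was nearest to Dll4 (0.93), Insm1 (0.93), a zinc finger factor of endocrine cells, and C2cd4c (0.92). Heyl was nearest to Smoc2 (0.90), Igf2 (0.89) and Adamtsl1 (0.89), and Nrarp to Vnn1, Gm16551 and Ugt2b35 (all 0.89). Lfng was nearest to H19, Tead2 and Tgm2, Hey1 to Greb1, Dusp9 and Kpnb1, and Rfng to Ipo13, 2810001G20Rik and Sgta. Among the members themselves, Hes1 correlated with Nrarp at 0.77, with Mfng at -0.56 and with Hes6 at -0.06.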

How the data were processed

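Single cells were counted by SORT-seq. The deposited table holds expected counts of transcripts per gene and well, called so from its values, which are near whole numbers but not whole, and not scaled for depth. How the authors corrected them is not given in the sources used here. Reads were aligned with BWA to mm10 per the submitters' processing notes, which also name Seurat. The 8 genes and all gene lists were chosen with earlier results of these data known. Of 58 libraries, 4 carry no experiment number and were left out of fits, and 1536 wells could not be matched to a library. No 2 wells held identical counts. Wells over 5 times their plate's median transcripts (8) were left out as likely doublets. No other doublet step was run.

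Counts were rounded and summed per experiment and class, with at least 10 cells per sum. They were tested with edgeR 4.0.16 (R 4.3.3) using TMM scaling, filterByExpr, experiment as block and Benjamini-Hochberg adjustment over all genes. Sums of the 6 classes shared 1 fit, and slopes had no block. Deviations of sums from the same experiment correlated (median r 0.390, over 0.1 in 73 of 74 pairs), against -0.0732 in other pairs, and the sums share plates. Joint detection was tested after thinning each cell to 2000 transcripts, adding 0.5 to each cell of the 2 by 2 table. All 8 genes were named whatever their result. Of other pathway genes the 3 with the largest change past the threshold were named, and further ones were named after seeing their values. The values of 1 pathway gene are not reported here. Alternatives were DESeq2 1.42.0, other gates, filters and cells, and leaving out each experiment. The code was tested on simulated data.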

Additional observations from a re-analysis of the deposited data

Results flagged for a closer look

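In 4 of 48 groups of 4 to 7 experiments, 1 experiment stood apart from the others by Dixon's test, which flags about 1 group in 20 by chance. Nrarp in mesenchymal cells was 31.4 CPM in EP10, against 1.72 to 6.57 CPM in the other 5 experiments. Its 82 transcripts came from 16 of 125 cells, with 29 in 1 cell. Endothelial markers summed to 1404 CPM in cells with Nrarp and 22.6 CPM in cells without. Mfng in the same mesenchymal cells of EP10 was 19.5 CPM, against 0 to 1.85 CPM elsewhere, from 51 transcripts in 9 cells. Endothelial markers stood at 2007 CPM in cells with Mfng and 22.9 CPM in cells without.

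Heyl in the Neurog3-positive cells of EP14 was 23.8 CPM, from 13 transcripts in 7 of 24 cells, against 10.6 to 12.7 CPM in the other 3 experiments. Lfng in the glucagon-gated cells of EP12 was 8.05 CPM, against 0 to 1.36 CPM elsewhere, and all 8 transcripts came from 1 of 46 cells.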

How the results depend on the processing

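Over 1594 alternative values of single members, 1501 kept their side of the threshold, 55 lost a call, 37 gained one and 1 called value changed sign, which was Hes1 in hormone-gated against Fev-positive cells with gates of 4 transcripts (log2 difference 0.000813). The cause was not tested. In Neurog3-positive against trunk-gated cells, 4 members passed in place of 2 with gates of 4, with the authors' cells or with trunk cells of at most 1 Cpa1, and 5 without the doubly gated Neurog3-positive cells. In Fev-positive against Neurog3-positive cells, 2 passed in place of 7 within live plates. In hormone-gated against Fev-positive cells, 0 passed in place of 1 under DESeq2, without the experiment block, with gates of 4, the authors' cells, live plates, trunk cells of at most 1 Cpa1 or without the doubly gated cells, 4 passed with gates of 1, and 0 to 1 with 1 experiment left out. In insulin-gated against glucagon-gated cells, 2 passed in place of 1 with gates of 1 or the authors' cells, 0 within live plates, and 0 to 1 with 1 experiment left out. In mesenchymal against trunk-gated cells, 3 to 6 passed in place of 6 with 1 experiment left out. Of the slopes, where 0 members passed, trunk-gated cells had 2 under DESeq2 or with no filter on low counts and 1 with gates of 4 or the authors' cells. Neurog3-positive cells had 1 with no filter and 0 to 1 with 1 experiment left out, insulin-gated cells 0 to 1 likewise, and glucagon-gated cells 1 with no filter. The mesenchymal slope call (1) became 0 within live plates and 0 to 1 with 1 experiment left out, where the 1 comes from leaving out EP17, which has no mesenchymal sum, and each of the 6 experiments in the fit ends the call. The slope difference had 1 under DESeq2, no filter, gates of 4 or trunk cells of at most 1 Cpa1, and 0 to 2 with 1 experiment left out. For joint detection of Hes1 and Hes6 in trunk-gated cells, the mean log odds ratio was 0.785 without thinning (p = 0.0313, two-sided exact sign-flip permutation test) and 0.533 with at least 2 transcripts (p = 0.0156, exact permutation test).

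Without the replicate block, members called were 2 in Neurog3-positive against trunk-gated cells, 7 in Fev-positive against Neurog3-positive cells, 1 in insulin-gated against glucagon-gated cells, 5 in mesenchymal against trunk-gated cells and 3 by Neurog3 level, and beyond the hormone-gated comparison the block changed calls in the mesenchymal one, where Hey1 and Rfng no longer passed and Mfng did. Counts over all genes moved further: 2333 in Neurog3-positive against trunk-gated cells (770 to 3303 over alternatives), 4474 in Fev-positive against Neurog3-positive (1606 to 4653), 513 in hormone-gated against Fev-positive (1 to 1570), 2678 in insulin-gated against glucagon-gated (73 to 2876), 5873 in mesenchymal against trunk-gated (4340 to 6616) and 1367 by Neurog3 level (277 to 2483). Slopes called 326 genes in trunk-gated (34 to 631), 11 in Neurog3-positive (0 to 307), 567 in insulin-gated (0 to 1112), 265 in glucagon-gated (0 to 983) and 630 in mesenchymal cells (52 to 1038), and the slope difference 273 (50 to 523).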
